A study of Phalaenopsis amabilis with 15 samples.

Results

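LOC110022335 and LOC110022349 are a pair of moth orchid (Phalaenopsis) loci whose best protein match is BT1, the Arabidopsis BTB/POZ and TAZ domain-containing protein 1. They were followed in leaves through a photoperiod experiment and are 2 of the 21144 loci in the deposited table. Both were picked from an earlier look at these data because they differed between short and long days at 40 days, so for this pair every comparison that uses a 40-day library is given below as a description with no test. The table matches 3 loci to BT1 in all. The third, LOC110028909, was not picked and is shown beside the pair.

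RNA from the uppermost young leaves was sequenced in 15 libraries that form 5 groups of 3, with 3 plants in the pool behind each library. The control group (Control) was harvested at 0 days, from plants that had 12 h of light, 28 °C days and 25 °C nights. The long-day groups (LD_20d and LD_40d) had then spent 20 or 40 days in 16 h of light and 8 h of dark, and the short-day groups (SD_20d and SD_40d) the same times in 8 h of light and 16 h of dark, all 4 with 25 °C days and 18 °C nights. A treated group thus differs from Control in day, light period and temperature at once, and these cannot be told apart. The hour of harvest is not given in the sources used here. The labels name the plants as Phalaenopsis amabilis, while the loci carry protein descriptions of Phalaenopsis equestris, so reads of one species were counted on gene models of another.

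BT proteins join a BTB/POZ domain, which lets them pair with each other and bind the ligase scaffold cullin-3, to a TAZ domain, which is otherwise known from histone acetyltransferases of the HAC family. In Arabidopsis they bind calmodulin and bromodomain proteins of the GTE family, are needed for the development of the gametophytes, and include members whose transcripts follow the time of day, light, sugar and nitrate.

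Both loci lie on the minus strand of scaffold NW_018164628.1, LOC110022349 at 308852 to 310936 and LOC110022335 at 327251 to 330283, with 16314 bases between them and no other listed locus in that gap. Their gene models have lengths of 1289 and 1442 bases. LOC110028909 lies on another scaffold, NW_018164444.1, at 43700789 to 43702507 on the plus strand, with a model of 1289 bases. All 3 carry the same protein match and the same 153 annotation terms, among them circadian rhythm, response to nitrate, response to cold and calmodulin binding. These terms are the deposited annotation and not measurements in orchids. Reads that could fit more than 1 of these loci cannot be checked without their sequences, and the split of counts between the neighbours is uncertain to that extent.

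Library totals ran from 11246777 to 14637388 counts. Replicates differed within several groups, most in SD_40d. On the first principal component of all kept loci (44.6% of the variance) SD_40d replicate 1 lay at -16.9 and the other SD_40d libraries at -77.6 and -89.3, while LD_20d ran from 9.5 to 64.6 and LD_40d from -59.8 to -18.6. The chi-square per gene between SD_40d replicate 1 and the other replicates was 74.41 and 96.86, against at most 50.42 within any other group. Tested results that use SD_40d are given with and without that replicate. Leaf mesophyll markers were present in every library, all 19 of 19 with counts.

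LOC110022335 was high before treatment, nearly silent in long days, intermediate after 20 short days and very uneven after 40. In CPM (read counts scaled to library size, with TMM factors), Control replicates 1, 2 and 3 had 248.2, 158.9 and 91.06, and the LD_20d replicates had 1.882, 1.092 and 3.374. The SD_20d replicates had 48.69, 16.47 and 22.42 CPM. The LD_40d replicates had 4.489, 4.044 and 2.727 CPM, and the SD_40d replicates had 6.997, 291.8 and 381. Every long-day library was under every other library, and SD_40d replicate 1 was the lowest of the libraries that were not from long days.

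LOC110022349 followed the same order of groups. Control replicates 1, 2 and 3 had 265.3, 276.3 and 173.9 CPM, and the LD_20d replicates had 5.366, 6.074 and 6.602. The SD_20d replicates had 35.85, 11.25 and 14.59 CPM, the LD_40d replicates had 9.435, 6.797 and 11.38, and the SD_40d replicates had 16.98, 419 and 525.2. Here the lowest SD_20d library lay just under the highest LD_40d library, so those groups overlapped, while SD_40d replicate 1 again fell far below its group. The fewest reads in any library were 16 for LOC110022335 and 77 for LOC110022349.

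**Figure D1:**
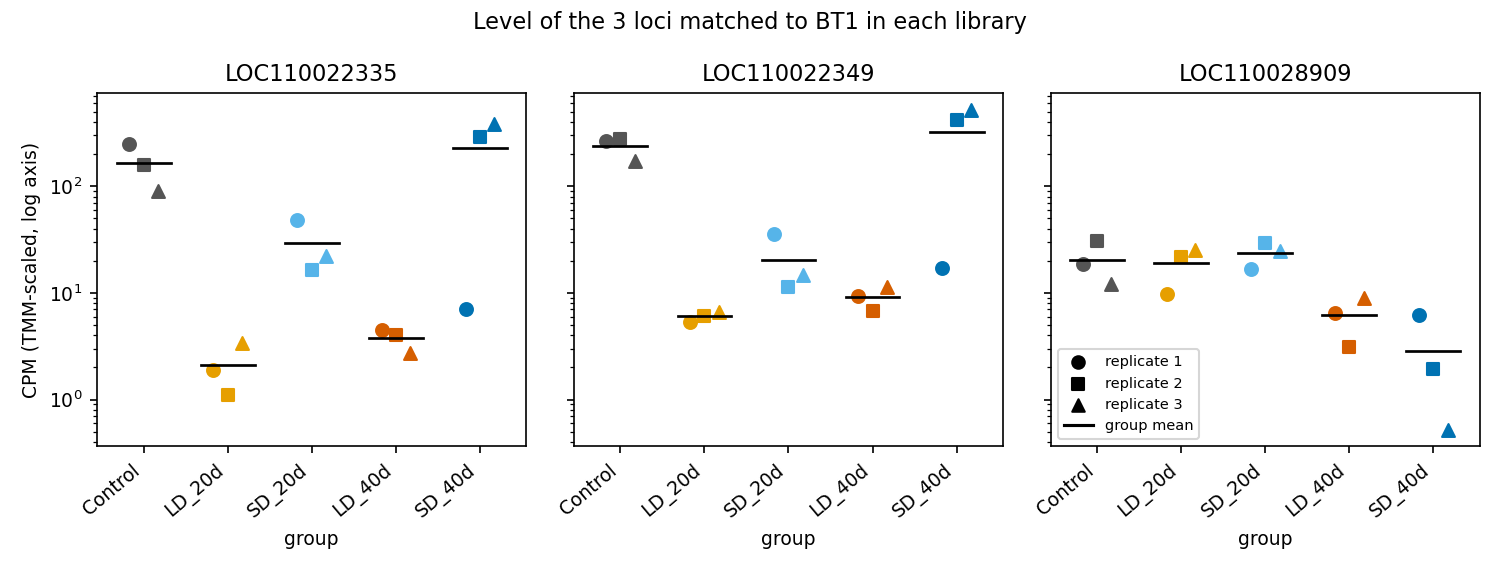
CPM of each library on a log axis for the 3 loci matched to BT1, by group, with the replicate number as the symbol and the group mean as a bar. For LOC110022335 and LOC110022349 the SD_40d libraries split, with replicate 1 at 6.997 and 16.98 CPM and the others at 291.8 or above, while LOC110028909 is lowest in SD_40d.

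On a per-length scale, the group means ordered in the same way at both loci. For LOC110022335 the deposited FPKM (read counts scaled by gene length and library total) averaged 146 ± 125 (SD, n = 3) in SD_40d, 108 ± 52.3 in Control, 21.8 ± 12.5 in SD_20d, 2.55 ± 0.526 in LD_40d and 1.52 ± 0.784 in LD_20d. For LOC110022349 they averaged 231 ± 192 in SD_40d, 174 ± 40.1 in Control, 17.2 ± 10.9 in SD_20d, 7.07 ± 1.97 in LD_40d and 4.88 ± 0.459 in LD_20d. Among neighbours in this order, the FPKM of SD_40d and Control overlapped at both loci, and so did those of LD_40d and LD_20d, at LOC110022349 barely (5.177 against 5.179). In CPM, LOC110022349 differed from this: LD_40d and LD_20d were just apart, and SD_20d and LD_40d just overlapped.

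Among all loci, the pair ranked high in Control and SD_40d and low in long days. In Control, LOC110022335 had a higher mean FPKM than 94.4% of the 16700 loci kept for testing and LOC110022349 than 97%. In LD_20d these shares came to 9.87% and 25.1%, against 61.3% and 54% for SD_20d. LD_40d gave 17.3% and 34.6%, and SD_40d gave 96.2% and 98.1%, where the mean rests on replicates 2 and 3.

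Against Control, both loci fell after 20 long days. Control exceeded LD_20d by 78.5-fold at LOC110022335 and by 39.7-fold at LOC110022349 in mean CPM, and the groups did not overlap at either locus, which held for 41.5% of all kept loci (20.7% lower in LD_20d). The log2 fold change was -6.3 ± 1.12 (SE) at LOC110022335 and -5.31 ± 0.91 at LOC110022349, with adjusted p = 0.00143 and 0.00117 by edgeR's quasi-likelihood test with Benjamini-Hochberg adjustment over all 16700 loci. At the adjusted p threshold of 0.05, 24% of all tested loci were called in this comparison, 11.4% up and 12.6% down, and the median log2 fold change of all of them was 0.023. With limma-voom the call at LOC110022335 was lost (-6.32, adjusted p = 0.0837) and that at LOC110022349 held (adjusted p = 0.0152).

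Both loci also fell from Control to 20 short days. Control exceeded SD_20d by 5.69-fold at LOC110022335 and by 11.6-fold at LOC110022349, again with no overlap between groups, which held for 53.6% of all kept loci (25.9% lower in SD_20d). The log2 fold change was -2.51 ± 0.89 at LOC110022335 (adjusted p = 0.0426) and -3.53 ± 0.83 at LOC110022349 (adjusted p = 0.00523) by edgeR. Of all tested loci, 35.1% were called in this comparison, 17.2% up and 17.9% down. The call at LOC110022335 is at the edge: limma-voom gave -2.53 with adjusted p = 0.107, and leaving out Control replicate 1 or 2 or SD_20d replicate 2 or 3 gave -2.1, -2.57, -2.22 and -2.34 with adjusted p = 0.123, 0.0656, 0.138 and 0.127. Both comparisons with Control use the same 3 control libraries, so their falls are not independent of each other.

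Leaf mesophyll markers moved with these falls. Their summed CPM ran from 64200 to 80310 in Control, from 15350 to 26090 in LD_20d and from 23690 to 29720 in SD_20d, and 16 and 18 of the 19 fell against Control. In these comparisons 12.6% and 17.9% of all tested loci fell, and 11.4% and 17.2% rose. Dividing-cell markers (B-type cyclins, topoisomerase and the like) ran from 126.1 to 164.4 summed CPM in Control, 144 to 435.7 in LD_20d and 408.5 to 585 in SD_20d. Of the 11 tested, 6 rose and 1 fell in LD_20d, and 9 rose and 1 fell in SD_20d by edgeR. With limma-voom 1 was called in LD_20d and 10 in SD_20d, and the lowest LD_20d library, at 144, lay inside the Control range. In this list 1 locus of the syntaxin KNOLLE was at 0 throughout. Floral organ markers stayed between 12.05 and 24.55 summed CPM in all 15 libraries, and meristem markers between 237.5 and 415.1. The part of these markers in the falls of the BT1 loci was not tested, and in whole leaves fewer cells of a type and less RNA per cell cannot be told apart.

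Between photoperiods at 20 days, both loci were higher in short days but neither passed the test. SD_20d exceeded LD_20d by 13.8-fold at LOC110022335 and by 3.42-fold at LOC110022349 in mean CPM, and every SD_20d library was above every LD_20d library at both loci, which was also true of 14.1% of all kept loci. The log2 difference was 3.79 ± 1.05 at LOC110022335 (adjusted p = 0.0959) and 1.78 ± 0.83 at LOC110022349 (adjusted p = 0.293) by edgeR, so 0 of 2 were called, where 0.862% of all tested loci were. LOC110022335 alone had an unadjusted p under 0.05 by edgeR. By DESeq2, LOC110022335 was called (3.78, adjusted p = 0.00531) and LOC110022349 was not (adjusted p = 0.224), and by limma-voom neither was (adjusted p = 0.463 and 0.621). Without SD_20d replicate 1, the highest of its group, the difference at LOC110022349 was 1.1.

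**Figure D2:**
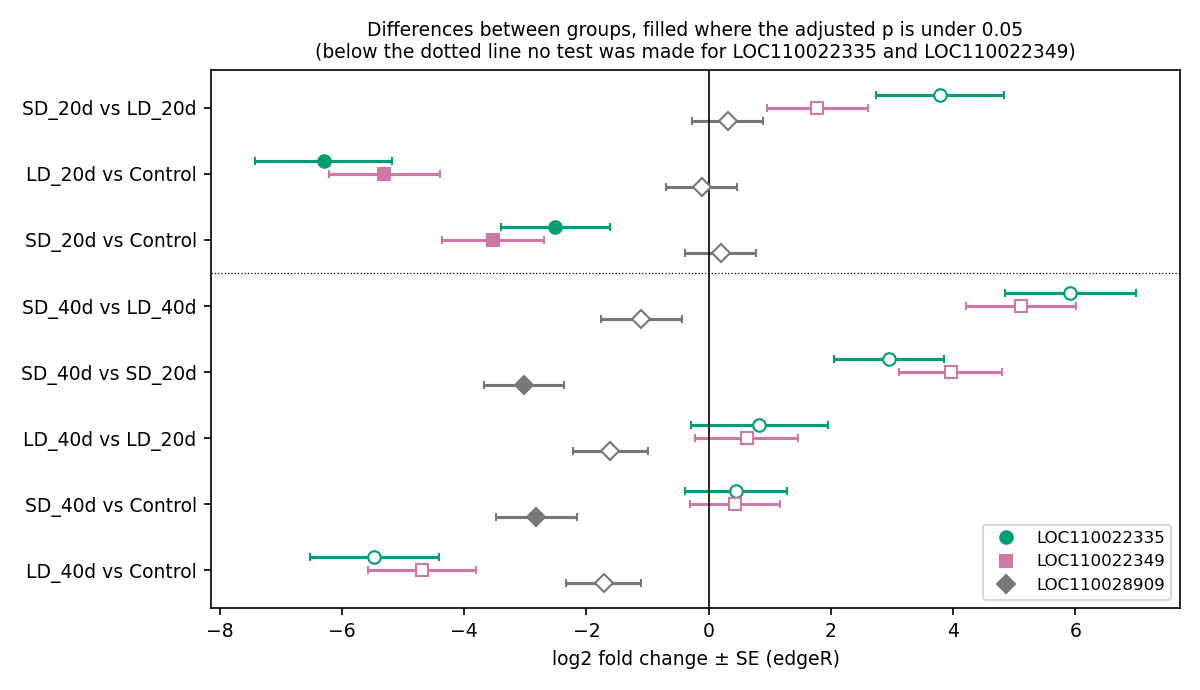
Log2 fold change with its SE for the 3 loci matched to BT1 in 8 comparisons, from the edgeR fit on all 15 libraries, with filled symbols where the adjusted p is under 0.05. The pair moves to the left in LD_20d and SD_20d against Control, while LOC110028909 lies at -0.11 and 0.2 there and is called lower where SD_40d is compared with SD_20d or Control, with open symbols on the same side for LD_40d.

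The following values at 40 days include the contrast the loci were picked on, so they are described only. SD_40d exceeded LD_40d by 60.4-fold at LOC110022335 and by 34.8-fold at LOC110022349 in mean CPM, with log2 differences of 5.92 ± 1.07 and 5.11 ± 0.9. In this comparison 0.461% of all tested loci were called, and nothing is read from that for loci chosen on it. Most of the difference lay in 2 of the 3 libraries. SD_40d replicate 1 alone was 1.86-fold above the LD_40d mean at LOC110022335 and 1.84-fold at LOC110022349, whereas replicates 2 and 3 were 77.7-fold and 102-fold above it at LOC110022335 and 45.5-fold and 57.1-fold at LOC110022349. Without replicate 1 the log2 differences were 6.49 and 5.67, and all 3 SD_40d libraries were above all LD_40d libraries at both loci, as at 7.26% of all kept loci.

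In short days, SD_40d replicates 2 and 3 were above every SD_20d library at both loci. At LOC110022335, SD_40d replicate 1 was below every SD_20d library. At LOC110022349 its 16.98 CPM lay inside the SD_20d range of 11.25 to 35.85, so SD_40d and SD_20d overlapped at both loci. Against the SD_20d mean, SD_40d replicate 1 stood at 0.24-fold at LOC110022335 and 0.826-fold at LOC110022349, while replicates 2 and 3 stood at 10-fold and 13-fold and at 20.4-fold and 25.5-fold. In long days the log2 difference between 40 and 20 days was 0.83 ± 1.12 and 0.62 ± 0.84. LD_40d was below Control, with log2 differences of -5.47 ± 1.06 and -4.69 ± 0.88.

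Whether SD_40d lay above or below Control depended on how the uneven group was summarised. The edgeR fit gave log2 differences of 0.45 ± 0.83 and 0.43 ± 0.74, and limma-voom, which averages log values, gave -0.75 and -0.58. By library, replicate 1 stood at 0.0421-fold and 0.0712-fold of the Control mean, and replicates 2 and 3 at 1.76-fold and 2.29-fold for LOC110022335 and 1.76-fold and 2.2-fold for LOC110022349.

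The summed counts of heat shock genes also set SD_40d replicate 1 below the other SD_40d libraries. The summed CPM of 49 heat shock loci was 11390 in SD_40d replicate 1, 23250 in replicate 2 and 19100 in replicate 3, and ran from 9590 to 11440 in LD_40d and from 9617 to 12250 in Control. HSP70-4 (LOC110024865) alone ran from 3724.15 to 10792.98 CPM over the 15 libraries, so it can carry much of the sum. In SD_40d against LD_40d 0 of 43 tested loci of this list were called by edgeR. At an unadjusted p under 0.05 there were 16, and limma-voom called 0 and DESeq2 8. Without replicate 1, edgeR called 18 of 44 higher and 0 lower, 40.9% beside 12% of all tested loci. Replicate 1 had the lowest sum of its group, so higher values without it are partly built in. Leaf mesophyll markers did not split them, with 36580 to 39990 in all 3. What sets replicate 1 apart was not tested, and the values alone do not say which of the libraries is typical of 40 short days.

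The neighbours kept nearly the same profile as each other. Over the 15 libraries their log2 CPM had a Pearson r of 0.957 and a Spearman rho of 0.943, and over the 12 libraries without SD_40d 0.937 and 0.916. After subtracting group means, r was 0.949 and rho 0.786, and without SD_40d 0.633 and 0.58, so part of the shared movement lies between replicates. These points share library, scaling and the possible sharing of reads, and no test is attached to them.

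The balance between the neighbours differed by group. The FPKM of LOC110022335 divided by that of LOC110022349 ran from 1.21 to 1.37 in SD_20d, from 0.468 to 0.836 in Control, from 0.368 to 0.648 in SD_40d, from 0.214 to 0.532 in LD_40d and from 0.161 to 0.457 in LD_20d. LOC110022335 was thus the higher one per length in the 3 SD_20d libraries and the lower one in the other 12.

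**Figure D3:**
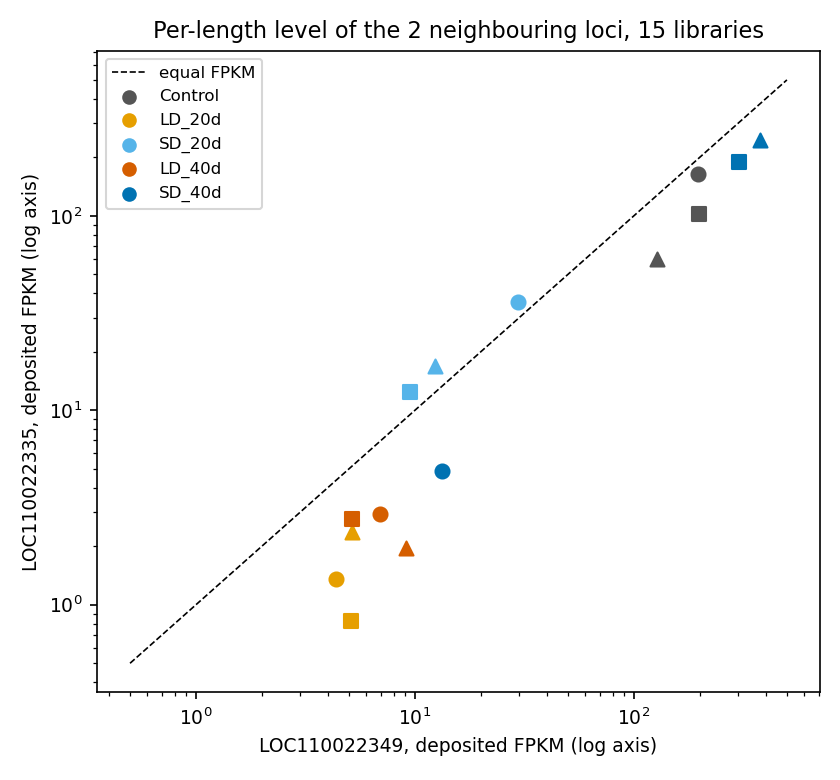
Deposited FPKM of LOC110022335 against LOC110022349 in the 15 libraries on log axes, coloured by group (circle, square and triangle for replicates 1, 2 and 3), with a dashed line where both are equal. The SD_20d libraries lie above the line, at ratios of 1.21 to 1.37, and every other library lies below it.

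The third BT1 match had another profile. LOC110028909 had 18.66, 30.76 and 12.19 CPM in Control replicates 1, 2 and 3, 9.757, 21.91 and 25.38 in LD_20d, and 16.81, 29.27 and 24.7 in SD_20d. It had 6.544, 3.097 and 8.93 CPM in LD_40d and 6.195, 1.92 and 0.516 in SD_40d. Its day 0 and day 20 groups overlapped, and both 40-day groups lay under all of them. Of all kept loci, 24.6% lay lower without overlap in SD_40d than in Control, and 21.9% did so in LD_40d.

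Tested by edgeR over all loci, LOC110028909 fell from 20 to 40 short days (-3.02 ± 0.66, adjusted p = 0.00344) and from Control to SD_40d (-2.82 ± 0.66, adjusted p = 0.00481), where 20.7% and 19.5% of all tested loci fell (20.1% rose in the first). Without SD_40d replicate 1 these were -4.31 and -4.16 (adjusted p = 0.000303 and 0.000393). In long days it was also lower at 40 days, without overlap and without passing the test: -1.72 ± 0.61 against Control (adjusted p = 0.0522, and 0.0491 without Control replicate 3) and -1.61 ± 0.61 against LD_20d (adjusted p = 0.113). Such a lower level without overlap was found at 21.9% of all kept loci against Control and at 16.4% against LD_20d. LOC110028909 did not pass between photoperiods at 20 days (0.31 ± 0.58, adjusted p = 0.832) or at 40 days (-1.1 ± 0.66, adjusted p = 0.451), nor from Control to LD_20d or SD_20d (-0.11 and 0.2, adjusted p = 0.913 and 0.818). Without SD_40d replicate 1 its difference between photoperiods at 40 days was -2.41 (adjusted p = 0.0386), where 12% of all tested loci were called. Its Pearson r with the mean of the pair was -0.315 and its rho -0.161 over 15 libraries, and 0.358 and 0.273 over the 12 without SD_40d.

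The scaffold of the pair holds 24 listed loci, of which 21 were kept, so 19 others were tested. The nearest on one side are SEN102 (LOC110022342), a thiol protease 12158 bases away, and CYSEP (LOC110022357), a vignain-type cysteine protease. On the other side are LEA14-A (LOC110022355), a late embryogenesis abundant protein 13675 bases away, and GDI2 (LOC110022338), which keeps Rab GTPases in their inactive form. SEN102 had 1 to 25 reads in a library and LEA14-A 5 to 43, so a missing call at these loci says little. By edgeR 0 of the 4 nearest loci were called in LD_20d or SD_20d against Control or between photoperiods at either time, with log2 values from -1.32 to 1.26. At an unadjusted p under 0.05, 1 passed in SD_20d against Control and 2 in SD_40d against LD_40d, and DESeq2 called 1 in each of these, limma-voom 0. Without SD_40d replicate 1, edgeR called CYSEP higher in SD_40d than in LD_40d (1.61 ± 0.27, adjusted p = 0.00266). That was 1 of the 4, where 12% of all tested loci were called. From 20 to 40 short days CYSEP rose (1.36 ± 0.36, adjusted p = 0.00901 by edgeR). LEA14-A, with 5 to 13 reads in SD_40d, fell (-1.72 ± 0.39, adjusted p = 0.00406 by edgeR). These are 2 of the 4, in a comparison where 40.7% of all tested loci were called. Without SD_40d replicate 1 the log2 values were 1.73 and -1.61, both still called, beside 48.3% of all tested loci.

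Of the 19 other scaffold loci, 1 rose and 3 fell in LD_20d against Control, and 3 rose and 2 fell in SD_20d against Control. These are 21.1% and 26.3% of them, beside 24% and 35.1% of all tested loci. The lowest values were -2.12 and -3.38, both at an uncharacterized locus, LOC110022347, against -6.3 and -2.51 at LOC110022335. Between photoperiods 1 was called at 20 days, PIL15 (LOC110022360), a phytochrome-interacting-factor-like transcription factor, which was higher in short days (0.79 ± 0.16, adjusted p = 0.0387 by edgeR). LOC110022347 and PIL15 are named here after their values were seen. At 40 days 0 of 19 were called by edgeR, 9 had an unadjusted p under 0.05, and limma-voom called 0 and DESeq2 3. Without SD_40d replicate 1, edgeR called 2 higher and 2 lower in short days, 21.1% of the 19 beside 12% of all tested loci.

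**Figure D4:**
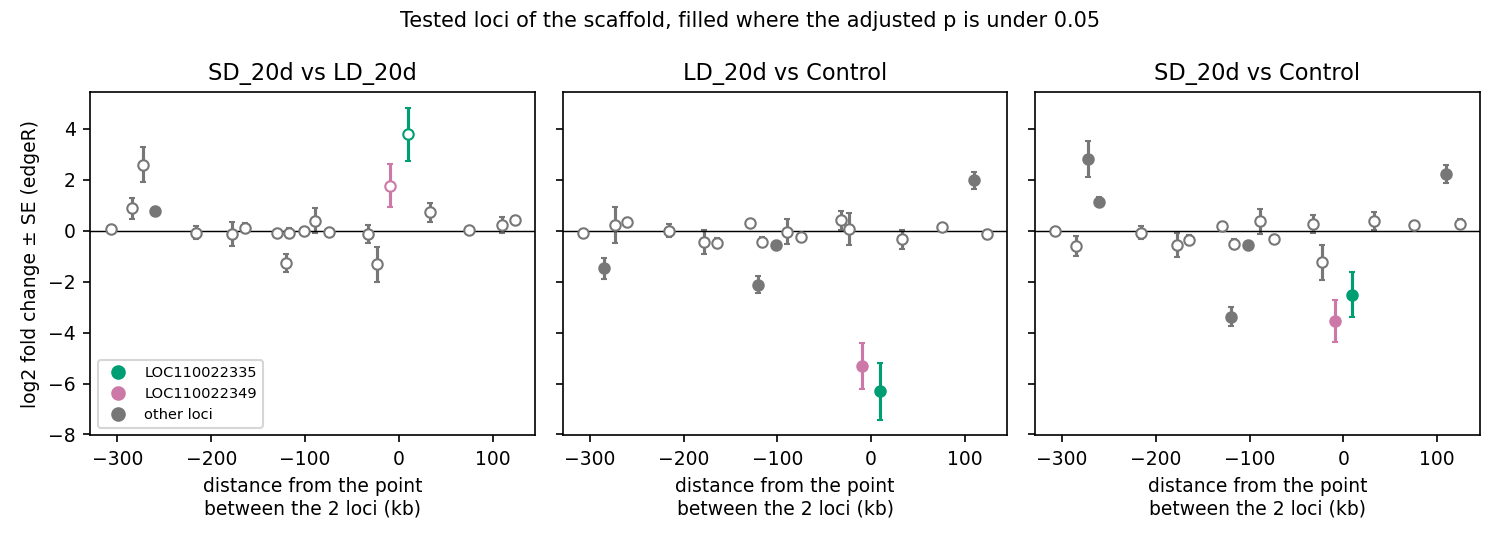
Log2 fold change with its SE of the tested loci on the scaffold in the 3 comparisons that use no 40-day library, by distance in kilobases from the point between the BT1 loci, with filled symbols where the adjusted p is under 0.05. In LD_20d against Control the BT1 loci lie at -6.3 and -5.31, and the other 19 loci between -2.12 and 1.99.

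The profiles most like the mean of the pair belonged to genes with smaller swings. Among 16698 other kept loci, 13 had a Pearson r above 0.9 over the 15 libraries, and 99% had an r under 0.745. The 8 highest with an informative description were ENPP3 (LOC110026812, a nucleotide pyrophosphatase/phosphodiesterase, r = 0.971), Cacybp (LOC110022851, matched to calcyclin-binding protein, r = 0.944), a stromal HSP70 chaperone (LOC110019053, r = 0.938), GATA7 (LOC110027045, a zinc finger transcription factor, r = 0.932), CAB8 (LOC110023588, a light-harvesting chlorophyll a-b binding protein, r = 0.923), DOF4 (LOC110031646, a Dof-type transcription factor, r = 0.917), PUB19 (LOC110017916, a U-box ubiquitin ligase, r = 0.916) and PRORP2 (LOC110022757, a protein-only RNase P, r = 0.916). SD_40d replicate 1 was the lowest of its group at all 8, which their choice by likeness to the pair made likely. The share of all loci with this order was not counted. Without SD_40d, 2 of the 8 remained among the closest 8, so the list depends on those libraries.

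GATA7, the one of these 8 with the largest log2 fall in LD_20d against Control, had 26.97, 19.33 and 21.55 CPM in Control, 1.951, 3.549 and 1.174 in LD_20d, 8.512, 7.502 and 10.68 in SD_20d, 2.511, 2.839 and 1.568 in LD_40d, and 4.956, 22.86 and 27.27 in SD_40d. It fell in LD_20d (-3.33 ± 0.53, adjusted p = 0.000735) and in SD_20d (-1.34 ± 0.48, adjusted p = 0.0439) against Control, and at 20 days it was higher in short days without passing the test (1.99 ± 0.53, adjusted p = 0.0856). CAB8, one of the leaf mesophyll markers, had 1841, 2099 and 1558 CPM in Control, 482.1, 377.7 and 474.6 in LD_20d and 1174, 933.7 and 1091 in SD_20d. Of these 8, CAB8 was the one called between photoperiods at 20 days (1.26 ± 0.18, adjusted p = 0.00634). All 8 were picked for likeness to the pair over the same libraries. Falls from Control and higher values in short days are therefore partly built in, and these adjusted p-values are no separate support.

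**Figure D5:**
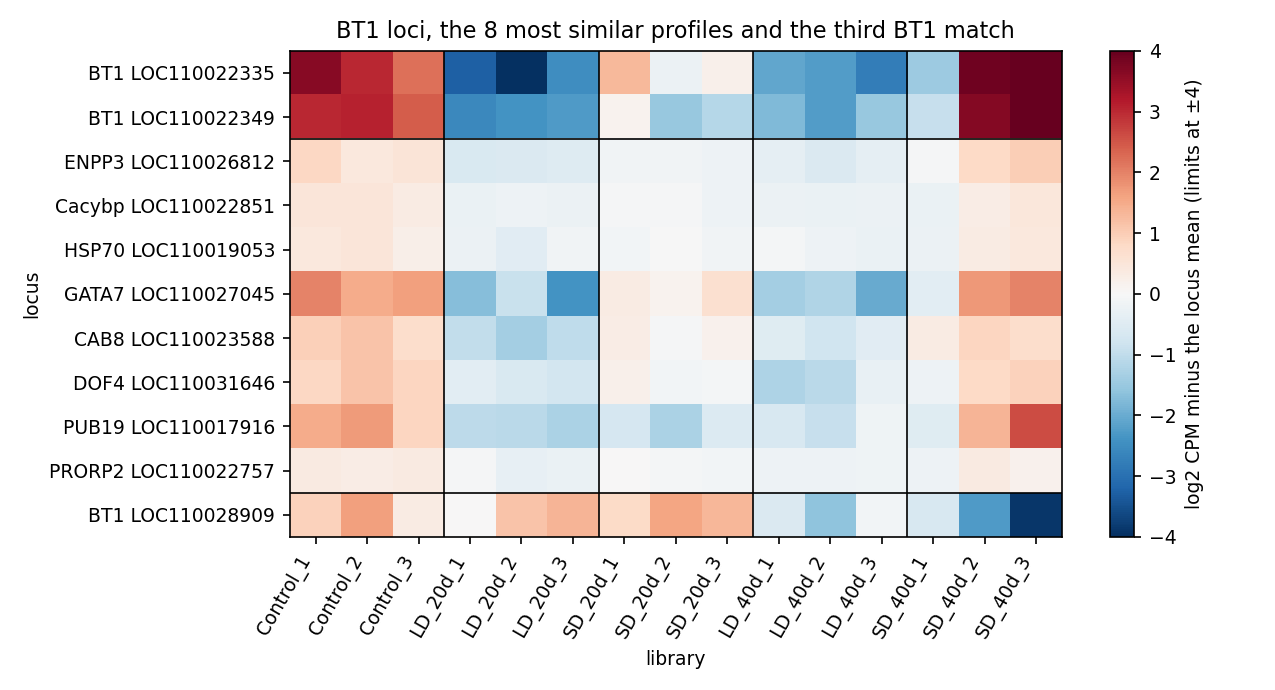
Log2 CPM minus the mean of the locus in the 15 libraries for the pair (top), the 8 loci of highest Pearson r to it and the third BT1 match (bottom), with colour limits at ±4. SD_40d replicate 1 is lower than replicates 2 and 3 in the rows of the pair and the 8 loci, and at the pair it lies below the locus mean. The bottom row is lowest in SD_40d replicate 3.

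Genes that share a domain, a partner family or a pathway with BT proteins were counted from word-based lists, and most of them are not known partners of BT proteins. In all, 191 loci of these lists and the 4 nearest neighbours were tested. Between photoperiods, edgeR called 1 of them at 20 days (30 at an unadjusted p under 0.05, 2 by limma-voom and 12 by DESeq2) and 0 at 40 days (33 at an unadjusted p under 0.05, 0 by limma-voom and 7 by DESeq2). The one at 20 days was NPF2.14 (LOC110034714), of the nitrate and peptide transporter family, which was lower in short days (-1.31 ± 0.24, adjusted p = 0.0248). Without SD_40d replicate 1, 26 were called at 40 days, 13.5% of the 192 then tested beside 12% of all tested loci. With all libraries, edgeR called 0.524% of the 191 at 20 days beside 0.862% of all tested loci, and 0% at 40 days beside 0.461%.

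Of 20 loci of the cullin-3 ligase core (cullin, RING-box protein, NEDD8 pathway and COP9 signalosome), 1 rose in LD_20d and 2 rose and 1 fell in SD_20d against Control, with list medians of 0.04 and 0.02 beside all-locus medians of 0.023 and 0.021. That is 5% and 15% of the list, beside 24% and 35.1% of all tested loci. AXR1 (LOC110022845), a subunit of the enzyme that activates NEDD8, rose in LD_20d (0.39 ± 0.12, adjusted p = 0.0311 by edgeR) and SD_20d (0.62 ± 0.12, adjusted p = 0.00164). The signalosome subunits CSN3 (LOC110023733, 0.55 ± 0.11, adjusted p = 0.00151) and CSN7 (LOC110022658, -0.65 ± 0.12, adjusted p = 0.00156) went in opposite directions in SD_20d. From 20 to 40 short days 6 rose and 5 fell, 55% of the list beside 40.7% of all tested loci. Leaving out SD_40d replicate 1, 8 rose and 4 fell, 60% beside 48.3%.

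Proteins that share a domain or a partner with BT1 were counted next. Of 49 other BTB/POZ loci tested, 9 rose and 8 fell in LD_20d and 9 rose and 9 fell in SD_20d against Control, with medians of 0.06 and 0.1. These are 34.7% and 36.7% of the list, beside 24% and 35.1% of all tested loci, so the second is near that share. NPR1 (LOC110029720), the salicylic acid receptor, fell in LD_20d (-1.41 ± 0.24, adjusted p = 0.000921 by edgeR) and SD_20d (-1.72 ± 0.24, adjusted p = 0.00019). BPM3 (LOC110031341), a MATH-BTB adaptor of cullin-3, rose in LD_20d (0.72 ± 0.12, adjusted p = 0.00088 by edgeR) and SD_20d (0.38 ± 0.12, adjusted p = 0.0244). The TAZ list holds the third BT1 match and 3 HAC histone acetyltransferases, and from 20 to 40 short days HAC12 (LOC110019242) rose by 0.27 ± 0.1 (adjusted p = 0.0447), a call lost without SD_40d replicate 1 (0.2, adjusted p = 0.114). Of 17 bromodomain loci, 6 rose and 1 fell in LD_20d and 4 rose and 1 fell in SD_20d, with medians of 0.16 and 0.14. The shares called were 41.2% and 29.4%, beside 24% and 35.1% of all tested loci. The one that fell was GTE7 (LOC110019273), with -1.98 ± 0.3 in LD_20d (adjusted p = 0.000498) and -1.72 ± 0.3 in SD_20d (adjusted p = 0.00081).

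GTE7, a bromodomain protein of the family that binds BT proteins in Arabidopsis, had 363.3, 426.1 and 453.9 CPM in Control, 88.16, 116.1 and 110.8 in LD_20d, and 103, 134.5 and 138.6 in SD_20d. It had 230.5, 127 and 167.9 CPM in LD_40d and 113.6, 262.5 and 289.9 in SD_40d. The Control libraries were above all others, and SD_40d replicate 1 was the lowest of its group, an order not counted over all loci.

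Nitrate and sugar genes are tied to BT proteins in Arabidopsis. Of 63 nitrate uptake and assimilation loci tested, 7 rose and 7 fell in LD_20d and 8 rose and 19 fell in SD_20d, with medians of 0.02 and -0.33. That is 22.2% of the list in LD_20d, near the 24% of all tested loci, and 42.9% in SD_20d beside 35.1%. NAR2.1 (LOC110018888), the partner protein of high-affinity nitrate transporters, had 10.84, 9.622 and 8.649 CPM in Control and between 0.8189 and 1.92 in all 12 treated libraries. It fell in LD_20d (-3.01 ± 0.27, adjusted p = 8.82e-06) and SD_20d (-2.87 ± 0.27, adjusted p = 1.22e-05), and unlike the pair it was also low in SD_40d replicates 2 and 3, at 1.92 and 1.622 CPM. GLT1 (LOC110020245), a glutamate synthase, rose in both (1.53 ± 0.2 and 1.69 ± 0.21, adjusted p = 0.000204 and 7.96e-05).

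Of 34 sugar and energy starvation loci tested, 6 rose and 7 fell in LD_20d and 5 rose and 7 fell in SD_20d, both with a median of -0.07. That is 38.2% and 35.3% of the list, beside 24% and 35.1% of all tested loci, so the second is near that share. TPS6 (LOC110027413), of the trehalose-phosphate synthase family, fell in both (-2 ± 0.27 and -1.89 ± 0.27, adjusted p = 0.000206 and 0.000215 by edgeR). Another locus matched to TPS6, LOC110035746, was called in neither (0.07 ± 0.45 and 0.59 ± 0.45, adjusted p = 0.932 and 0.331 by edgeR). The hexokinase HXK3 (LOC110018343) rose in LD_20d (0.84 ± 0.16, adjusted p = 0.00232 by edgeR) and SD_20d (0.79 ± 0.16, adjusted p = 0.0024). From 20 to 40 short days, 20 nitrate loci rose and 9 fell, with a median of 0.45, and 10 sugar loci rose and 1 fell, with a median of 0.26. In that comparison 40.7% of all tested loci were called and the all-locus median was -0.005. Without SD_40d replicate 1 the counts were 19 and 9 for nitrate loci and 12 and 2 for sugar loci, beside 48.3% of all loci called. AMT1-1 (LOC110038906), an ammonium transporter, rose (1.81 ± 0.23, adjusted p = 0.00065), and so did TPS7 (LOC110038718, 1.45 ± 0.25, adjusted p = 0.000989). They rose by 2.06 and 1.72 without SD_40d replicate 1.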

How the data were processed

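RNA of 15 leaf libraries was counted per locus by the authors. The deposited table gives unnormalised whole-number read counts and FPKM values, per the file headers. The submitters' processing notes list DESeq 1.30.0, HTSeq 0.9.1, HISAT2 2.0.5 and cutadapt 1.15, while the genome build and strand setting are not given in the sources used here. The deposited FPKM equal count over length and library total within 0.1% for 21143 of 21144 loci, both BT1 loci included. Positions and lengths are other columns of the same deposited table.

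Counts were fitted with edgeR 4.0.16 in R 4.3.3 (quasi-likelihood, TMM scaling, factors 0.9252 to 1.09), with the 5 groups in 1 fit, no covariate, and 16700 loci kept by filterByExpr, both BT1 loci among them. Adjusted p-values are Benjamini-Hochberg over all kept loci. The SE is the log2 fold change divided by the root of its F statistic. CPM in log2 used a prior count of 2. DESeq2 1.42.0, limma-voom (limma 3.58.1), RLE scaling, no filter, 2 groups only, a replicate block and leaving out each library were alternatives. Scripts were tested on simulated data. The marker lists and the other gene lists came from words in the protein descriptions, with exclusions made after the table was seen, on the descriptions alone. Members and lists were chosen with earlier results of these data known. Genes named were the BT1 matches, the nearest 2 loci on each side, the smallest adjusted p per list, direction and comparison, and the 8 closest profiles. Counts of replicates differed beyond sampling noise in every group. No sequences were analysed here.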

Additional observations from a re-analysis of the deposited data

How the results depend on the processing

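At both BT1 loci every direction in the 3 tested comparisons held under all alternatives run. At LOC110022335, SD_20d against Control lost its call with limma-voom (-2.53) and with the replicate block (-2.53, adjusted p = 0.0647), and without single libraries it ran from -3.09 to -2.1 (adjusted p = 0.047 to 0.138). LD_20d against Control lost it with limma-voom (-6.32), and SD_20d against LD_20d gained one with DESeq2 (3.78) and with the 2 groups alone (3.77, adjusted p = 0.0336). LOC110022349 changed no call. The cause was not tested. At 40 days limma-voom gave 4.64 and 4.09 for SD_40d against LD_40d, and 1.79 for LOC110022335 from SD_20d to SD_40d.

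Replicate numbers showed no general pairing of the libraries. Over 30 same-numbered pairs, deviations from group means correlated from -0.286 to 0.364, with 9 over 0.1. Their median was -0.034, against 0.002 for pairs with different numbers. The replicate block changed no other BT1 call, and moved the list and neighbour loci called from 1 to 2 in SD_20d against LD_20d and from 15 to 4 in LD_40d against LD_20d. Other settings gave, for SD_20d against LD_20d, 2 with limma-voom, 12 with DESeq2, 3 with 2 groups alone and 0 to 10 without single libraries. For LD_40d against LD_20d they gave 9, 27, 0 and 0 to 28. For SD_40d against LD_40d (0), DESeq2 gave 7 and single libraries left out 0 to 26. Leaving out single libraries gave 32 to 45 for LD_20d against Control (52), 52 to 60 for SD_20d against Control (65) and 53 to 95 for SD_40d against SD_20d (84). Of the 8 closest profiles, 2 stayed without SD_40d.

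Calls over all loci moved as well: from 77 to 45 (block), 614 (DESeq2), 0 (2 groups) and 0 to 2037 (single libraries left out, the highest without SD_40d replicate 1) for SD_40d against LD_40d. They moved from 861 to 301, 2198, 146 and 1 to 2012, and to 483 with limma-voom, for LD_40d against LD_20d, and from 144 to 815 (DESeq2) and 5 to 885 for SD_20d against LD_20d. LOC110028909 changed sign where it was not called. LD_20d against Control ran from -0.38 to 0.29 without single libraries (0.2 without LD_20d replicate 1), SD_20d against Control from -0.07 to 0.58, and SD_20d against LD_20d from 0 to 0.57.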
